A study of Mus musculus with 2 samples.

Results

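The AP-1 family was followed through lung endothelial cells (ECs) of mice that had received melanoma cells into the circulation. The family is represented here by 8 genes, the FOS subfamily (Fos, Fosb, Fosl1 and Fosl2), the JUN subfamily (Jun, Junb and Jund) and Atf3. The genes were taken by symbol, and each symbol matched 1 of the 32285 gene IDs measured. The study asked how lung ECs respond in the first hours after circulating melanoma cells arrive. The 2 libraries analysed were a control library from C57BL/6 mice given PBS and a library from C57BL/6 mice given 400000 B16-F10 cells in 100 µl, both by the tail vein, with lungs taken after 6 h. B16-F10 is an established mouse melanoma line that colonises the lung after intravenous injection, and it was labelled with a green tracker dye. All mice carried the WT genotype, and the labels state 2 mice for each treatment, pooled into 1 library, where the study's methods give another number for this dose. Cells positive for Pecam1 and negative for Ptprc were sorted from collagenase-digested lung, and dye-positive melanoma cells were added from the injected mice.

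AP-1 factors are basic leucine zipper proteins that bind DNA as pairs. JUN proteins pair with themselves or with FOS proteins, FOS proteins need a JUN partner, and ATF3 pairs with several members of the wider family. Fos, Fosb, Jun, Junb and Atf3 are classic immediate early genes, switched on within minutes by growth factors, cytokines, shear stress or tissue handling. In endothelium the family is known for its part in inflammatory, adhesion and protease gene expression.

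With 1 library in each group no test between conditions was possible, and pooled mice cannot show the spread between animals. A level is given as UMIs (unique transcript molecules) per 1000000 UMIs of the cells summed (CPM), and a difference as the log2 ratio of the B16-F10 level to the control level. All intervals are exact 95% intervals and cover counting error only. A gene with at least 50 UMIs over both libraries was called measured, and it was called higher or lower where its level differed by at least 1.5-fold with an interval that left out 0. These 3′ counts hold 1 UMI for each captured molecule and were not divided by transcript length.

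The matrices held 85794655 and 104978816 UMIs in the control and B16-F10 libraries. Barcodes with 1000 to 5000 genes and under 20% mitochondrial UMIs numbered 8394 and 8321, of which 7830 and 7767 were left after doublet removal, and 19 barcode sequences lay within the limits in both libraries. Vessel classes were rebuilt from clusters by marker genes. They comprised 3830 control and 3759 B16-F10 general capillary cells (gCap-like), 1448 and 978 aerocytes (aCap-like), 494 and 386 artery-like cells, 289 and 280 vein-like cells, and 58 and 51 lymphatic cells (LEC-like). A further 948 and 783 ECs had no vessel name (13.4% of control ECs), and clusters that mixed EC markers with those of red cells (300 and 752 cells), platelets (231 and 282), mural cells (118 and 163) or epithelium (89 and 136) were kept out of every class. Different clusters held much of a class in the 2 libraries. In gCap-like ECs a cluster led by Lalba and Tmem252 held 65 control and 992 B16-F10 cells, and one led by Gclm and Tox3 held 489 and 82. In aCap-like ECs a cluster led by Tmeff2 and Rgs6 held 654 and 83 cells.

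The 8 genes lie on 7 chromosomes (positions in GRCm38, GENCODE M21), and all are annotated as protein-coding. Fos (ENSMUSG00000021250) lies at chr12:85473890-85477273 on the + strand, Fosb (ENSMUSG00000003545) at chr7:19302696-19310051 on the - strand, Fosl1 (ENSMUSG00000024912) at chr19:5447547-5455946 on the + strand and Fosl2 (ENSMUSG00000029135) at chr5:32135801-32157842 on the + strand. Jun (ENSMUSG00000052684) lies at chr4:95049034-95052222 on the - strand, Junb (ENSMUSG00000052837) at chr8:84974484-84978718 on the - strand, Jund (ENSMUSG00000071076) at chr8:70698949-70700616 on the + strand and Atf3 (ENSMUSG00000026628) at chr1:191170296-191218039 on the - strand. Fosl1, Jun, Junb and Jund each overlap a gene on the opposite strand (Ccdc85b, Junos, Prdx2 and Gm11175), and no source used here states how strand was treated in counting.

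The 150 bases before the RefSeq start site (GRCm38.p6) are shown for Fos, Fosb, Junb and Atf3, immediate early genes whose windows hold a shared 5-letter core, and for Jun, an immediate early gene whose window does not, each 5′ to 3′ on the gene's own strand. These 5 were picked with the letters and the values described next already known. Capitals mark the 5-letter core TGACG of the cyclic AMP response element on either strand.
Fos, chr12:85473740-85473889: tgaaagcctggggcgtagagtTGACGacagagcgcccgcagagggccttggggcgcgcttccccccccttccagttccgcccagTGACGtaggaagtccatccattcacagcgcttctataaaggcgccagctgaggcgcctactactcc
Fosb, chr7:19310046-19310195: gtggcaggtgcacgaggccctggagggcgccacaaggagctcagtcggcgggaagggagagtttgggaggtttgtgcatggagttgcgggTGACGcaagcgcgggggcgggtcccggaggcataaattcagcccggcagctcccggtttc
Junb, chr8:84978749-84978898: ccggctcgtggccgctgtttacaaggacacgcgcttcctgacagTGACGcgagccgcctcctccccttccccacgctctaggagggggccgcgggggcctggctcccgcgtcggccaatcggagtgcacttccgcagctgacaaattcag
Atf3, chr1:191183334-191183483: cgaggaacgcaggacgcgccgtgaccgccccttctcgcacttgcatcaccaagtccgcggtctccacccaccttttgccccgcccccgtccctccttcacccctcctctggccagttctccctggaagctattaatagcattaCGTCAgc
Jun, chr4:95052223-95052372: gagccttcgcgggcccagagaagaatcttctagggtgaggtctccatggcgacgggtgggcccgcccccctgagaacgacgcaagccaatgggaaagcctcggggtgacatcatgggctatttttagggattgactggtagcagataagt

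RefSeq held a start-site window for 7 of the 8 members, and Fosl1 had none. In the 250 bases before the start, TGACG on either strand was found in the windows of Fos, Fosb, Junb and Atf3 and not in those of Fosl2, Jun and Jund, and 17.8% of 32851 such windows in the genome hold it. The letters were searched after the sequences had been read. Fosl2, without the letters, was also called higher in the capillaries described next, as was Fosl1, for which no window was searched. Jund, likewise without the letters, was called higher in gCap-like ECs. The first bases of the marked letters lay 129 and 66 bases before the Fos start, 60 before Fosb, 106 before Junb and 7 before Atf3. The AP-1 site TGANTCA (6.75% of windows), the full element TGACGTCA (1.55%), the STAT-type site TTCNNNGAA (7.02%) and the CArG box bound by serum response factor (1.47%) were found in none of the 7 windows. Only these patterns within 250 bases were searched, so a variant or a site further away would not have been found. The Atf3 window belongs to a start site inside the annotated gene, 34706 bases from the gene's outer end, and the Jund window starts 1210 bases away from the annotated gene start.

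In gCap-like ECs, 7 of the 8 members were called higher in the B16-F10 library and none lower, where 7.98% of the 12897 genes measured were called higher and 9.56% lower. The summed FOS subfamily had 2754 control and 13433 B16-F10 UMIs, a log2 ratio of 2.07 (2.01 to 2.13). The JUN subfamily as a sum stood at 1927 and 3212 CPM, a log2 ratio of 0.74 (0.72 to 0.75). The median log2 ratio over all measured genes in this class was -0.04.

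Fos, the prototype immediate early gene, had 1685 UMIs in control and 9702 UMIs in B16-F10 gCap-like ECs. Its control level was 59.4 CPM (56.5 to 62.3) and its B16-F10 level 294 CPM (289 to 300), a log2 ratio of 2.31 (2.24 to 2.39). Fosb, the closest relative of Fos and also an immediate early gene, was at 27.8 and 80.3 CPM, a log2 ratio of 1.53 (1.41 to 1.65). For both genes the 2 intervals lay far apart.

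Fosl1 encodes FRA-1, a FOS protein linked to cell migration and invasion, and Fosl2 encodes FRA-2. Fosl1 was the rarest member, with 18 UMIs (0.634 CPM) in control and 178 UMIs (5.40 CPM) in B16-F10 gCap-like ECs and a log2 ratio of 3.09 (2.39 to 3.88). Fosl2 was at 9.19 and 27.5 CPM, a log2 ratio of 1.58 (1.38 to 1.78). Of these, the cluster led by Lalba held 158 of the 178 Fosl1 UMIs and 622 of the 905 Fosl2 UMIs of the B16-F10 library. With the clusters held mostly by 1 library left out (over 80% of cells), the log2 ratio was 0.96 (-0.21 to 2.23) for Fosl1 and 0.48 (0.21 to 0.75) for Fosl2, and 4 of 7 measured members were called higher, where 6.03% of genes measured were.

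Jun, the central partner of FOS proteins, was the most abundant member in both libraries by UMI. It was at 1388 CPM (1374 to 1401) in control and 1818 CPM (1804 to 1833) in B16-F10 gCap-like ECs, and its log2 ratio of 0.39 (0.37 to 0.41) fell short of the 1.5-fold limit. Junb, which can oppose Jun at some promoters, was at 165 CPM (160 to 170) and 812 CPM (802 to 822), a log2 ratio of 2.30 (2.26 to 2.35). Jund, a JUN protein that most cells make without stimulation, was at 375 and 582 CPM, a log2 ratio of 0.63 (0.60 to 0.67), only just past the limit. Without the clusters held mostly by 1 library the Jund log2 ratio was 0.54, under that limit.

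Atf3, a stress-induced factor, was at 11.9 CPM (10.7 to 13.2) in control and 81.0 CPM (77.9 to 84.1) in B16-F10 gCap-like ECs, a log2 ratio of 2.77 (2.60 to 2.93). Without the clusters held mostly by 1 library it was 2.08, beside 2.21 for Fos and 2.08 for Junb, so no order of the 3 is drawn.

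**Figure D1:**
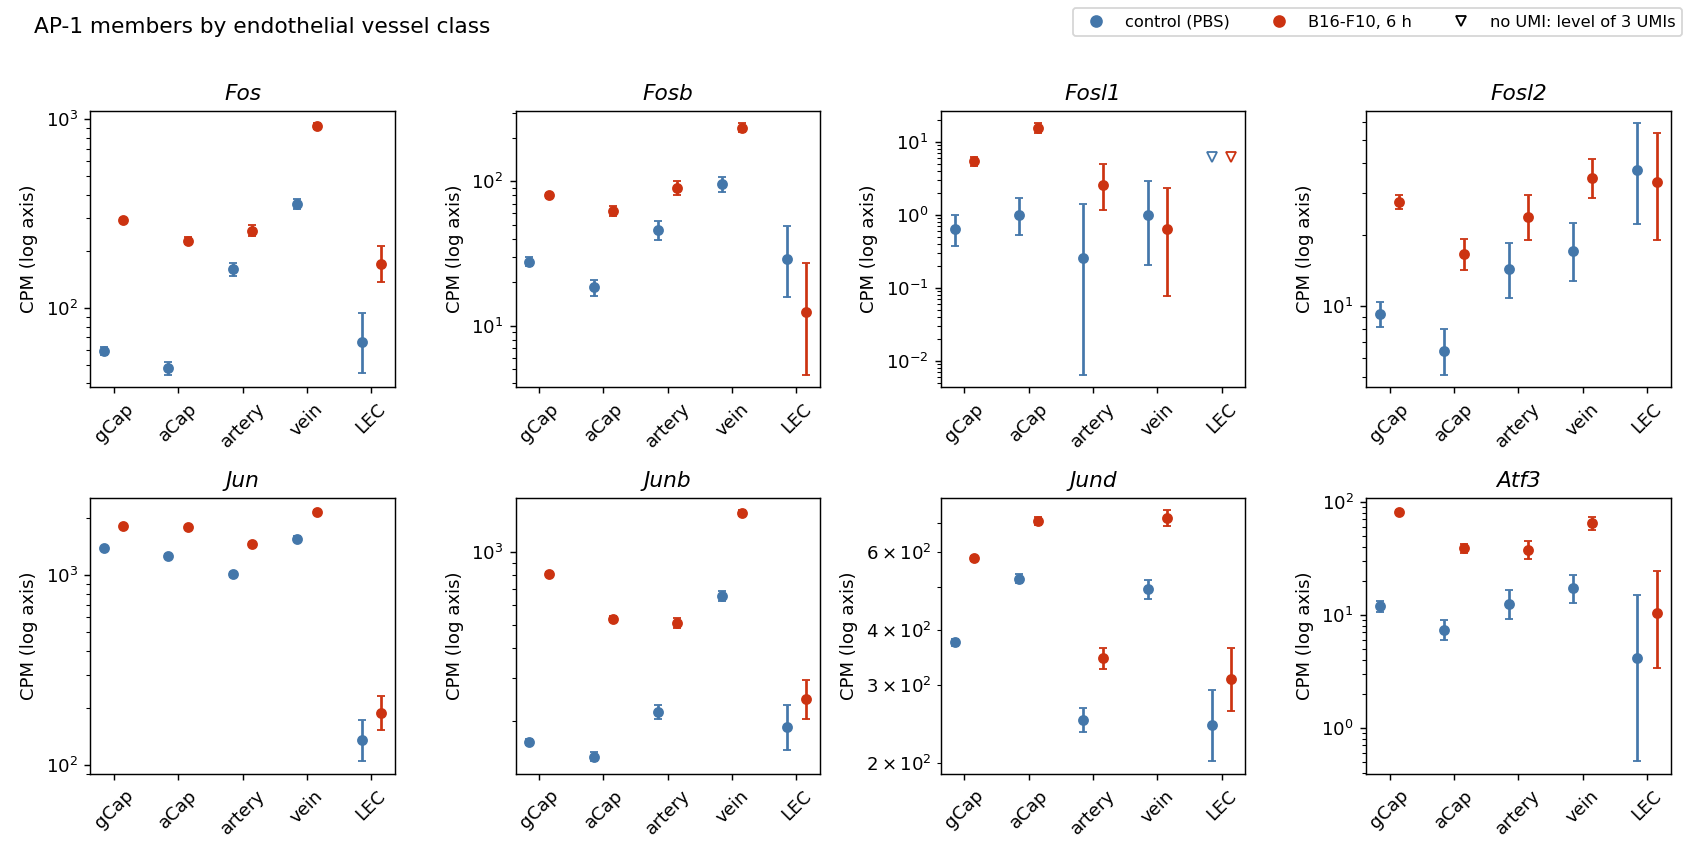
Level of each member in CPM (log axes, which differ between panels) in the 5 vessel classes of the control (blue) and B16-F10 (red) libraries, with exact 95% Poisson intervals; open triangles mark the level of 3 UMIs where a sum held none. Fos was at 59.4 and 294 CPM in gCap-like ECs and at 355 and 920 CPM in vein-like ECs, while Jun was at 135 CPM in control LEC-like cells.

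The make-up of the family's UMIs differed with it. Of the 57803 AP-1 UMIs in control gCap-like ECs, 68.2% were Jun, 18.4% Jund, 8.09% Junb, 2.92% Fos and 0.585% Atf3. Of the 121955 in B16-F10 gCap-like ECs, 49.1% were Jun, 21.9% Junb, 15.7% Jund, 7.96% Fos and 2.19% Atf3. Junb and Jund thus changed places by UMI share. In control vein-like ECs 48.8% were Jun, 20.5% Junb and 11.1% Fos, near or above the shares of B16-F10 gCap-like ECs, while Atf3 at 0.535% was near that of control gCap-like ECs.

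**Figure D2:**
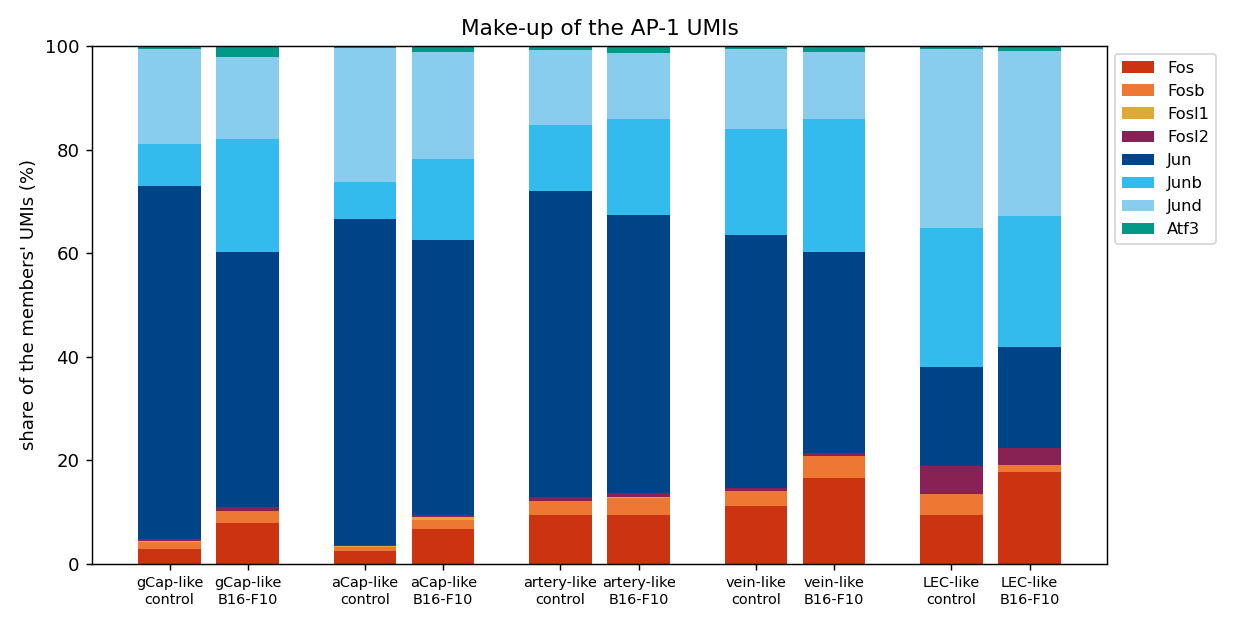
Share (%) of the 8 members in their summed UMIs, by vessel class and library, each bar adding to 100%. In gCap-like ECs the Jun share was 68.2% in the control and 49.1% in the B16-F10 library and the Junb share 8.09% and 21.9%.

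At the level of single cells, gCap-like ECs were thinned to 2000 UMIs each, which left out 58 control and 30 B16-F10 cells. At this depth 20.1% of the control cells (18.9 to 21.4) held Junb, as did 63.3% of those from the B16-F10 library (61.8 to 64.9), and unthinned in 38.3% and 85.2%. Fos was seen in 7.69% (6.86 to 8.59) and 28.0% (26.6 to 29.5) of thinned cells, and unthinned in 17.0% and 49.3%. Atf3 was seen in 1.80% and 10.7%, and unthinned in 5.38% and 27.8%. Jun, in contrast, was already present in most cells, 82.1% and 89.6% thinned, and 94.1% and 98.2% unthinned.

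Fosb was seen in 4.40% and 12.3% of thinned gCap-like cells, Fosl2 in 1.59% and 4.72%, Jund in 45.1% and 59.3%, and Fosl1 in 1 of 3772 control and 32 of 3729 B16-F10 cells. Unthinned shares were 11.7% and 27.6% for Fosb, 6.06% and 15.6% for Fosl2, 76.5% and 90.2% for Jund, and 0.418% and 3.01% for Fosl1. No cell type in these libraries is known to lack the family, so free RNA was estimated from barcodes with 1 to 100 UMIs, scaled by lung epithelial genes. It came to 1.46% of control and 2.06% of B16-F10 gCap UMIs, and to 0.913 and 5.28 CPM of Fos, 2.31 and 14.7 CPM of Junb, 11.5 and 19.2 CPM of Jun and 0.351 and 1.32 CPM of Atf3. Median depth of the class was 7236 and 8467 UMIs.

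**Figure D3:**
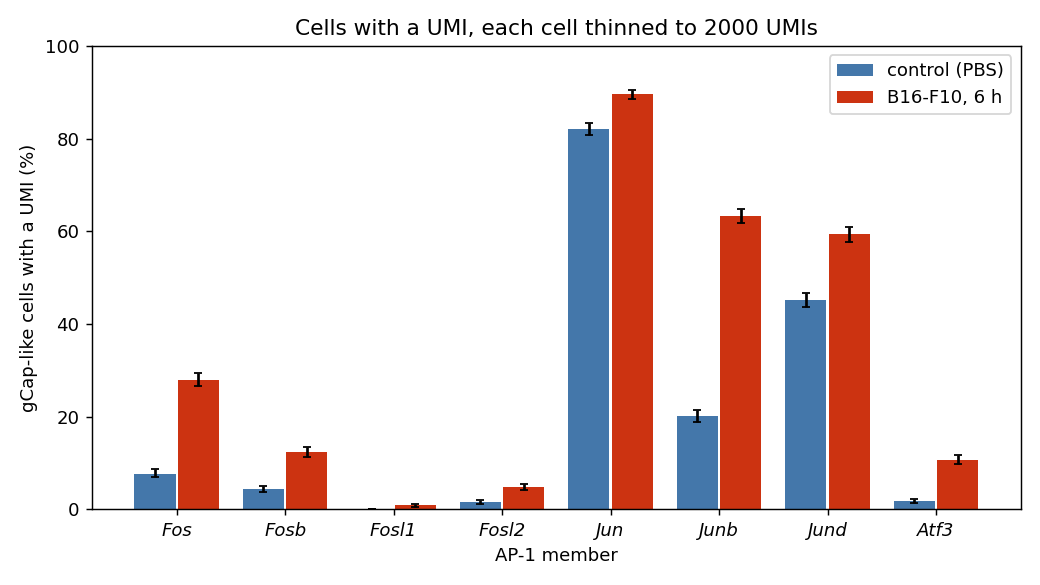
Share (%) of gCap-like cells with at least 1 UMI of each member after thinning every cell to 2000 UMIs, in the control (blue, 3772 cells) and B16-F10 (red, 3729 cells) libraries, with exact 95% binomial intervals. The widest gap was that of Junb, 20.1% against 63.3%.

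In aCap-like ECs, the thin cells that form the gas exchange surface, 6 of the 8 members were called higher and none lower, where 6.12% of genes measured were called higher and 7.46% lower. Fos was at 48.2 and 228 CPM, a log2 ratio of 2.24 (2.12 to 2.37), and Junb at 143 and 528 CPM, a log2 ratio of 1.89 (1.81 to 1.96). Atf3 was at 7.32 and 38.6 CPM, a log2 ratio of 2.40 (2.07 to 2.73). Fosb (1.76), Fosl2 (1.36) and Fosl1 (3.96, from 13 and 168 UMIs) were also higher, while the log2 ratios of Jun (0.51) and Jund (0.43) fell short of the limit. The cluster led by Tmeff2, held mostly by the control library, had the lowest Fos of any vessel cluster (7.46 CPM in control), and without it the aCap log2 ratio of Fos was 1.76.

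Vein-like ECs had the highest control level of Fos, Fosb, Jun and Junb among the 5 classes. There 5 of 7 measured members were called higher and none lower, where 4.63% of genes measured were called higher and 4.78% lower. Fos was at 355 CPM (334 to 377) in control and 920 CPM (887 to 954) in the B16-F10 library, a log2 ratio of 1.37 (1.27 to 1.48). Junb was at 656 and 1439 CPM, a log2 ratio of 1.13 (1.06 to 1.21). The control vein-like cells thus held more Fos than the gCap-like cells of the B16-F10 library. Between the vein-like cells of the 2 libraries the 6 red cell markers differed as well, at 517 and 3550 CPM. The 8 melanoma markers summed to 0.658 and 27.6 CPM (6 and 0 of 8 at 0) and the 8 macrophage markers to 13.5 and 31.8 CPM (5 and 4 of 8 at 0), and the part of these cells was not tested.

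Among the other members in vein-like ECs, Fosb was at 95.7 and 236 CPM, a log2 ratio of 1.30, and Atf3 at 17.1 and 64.2 CPM, a log2 ratio of 1.91 (1.46 to 2.38). Fosl2 had a log2 ratio of 1.02 (0.53 to 1.52), which was 0.33 (-0.70 to 1.33) in cells with no UMI of other types' markers, while Jun (0.47) and Jund (0.54) fell short of the limit. Fosl1, the member linked to invasion, had only 3 and 2 UMIs in vein-like ECs and was not measured.

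In artery-like ECs 5 of 7 measured members were called higher and none lower, where 7.55% of genes measured were called higher and 7.19% lower. Fos was at 161 and 258 CPM, a log2 ratio of 0.68 (0.53 to 0.83), Junb at 219 and 507 CPM, a log2 ratio of 1.21 (1.10 to 1.33), and Atf3 at 12.5 and 37.5 CPM, a log2 ratio of 1.59 (1.10 to 2.09). Fosb (0.96) and Fosl2 (0.74) were also higher, and Jun (0.53) and Jund (0.47) fell short of the limit. Of the 5 calls only that of Atf3 held in all 16 alternatives run. The call was lost for Fos in 8 of them (log2 ratios 0.11 to 0.57), for Junb in 3 (0.29 to 0.43), for Fosb in 3 (0.46 to 0.53) and for Fosl2 in 2 (0.13 and 0.22).

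In artery-like ECs of the control and B16-F10 libraries the 8 gCap markers summed to 5828 and 5775 CPM. The 8 artery markers summed to 2735 and 2009 CPM. This class joined 2 clusters with very different levels of the family. The larger met the naming rule for gCap (0.50 of the list) as well as for artery (0.75). The smaller met that for vein (0.50) as well as for artery (1.00). In the larger one, led by Adam23 and Pde1c (426 control and 343 B16-F10 cells), Fos was at 26.4 and 191 CPM, a log2 ratio of 2.85 (2.53 to 3.19), and Junb at 88.1 and 467 CPM, a log2 ratio of 2.41 (2.23 to 2.59). In the smaller one, led by Sfrp1 and Dkk2 (68 and 43 cells), Fos was at 1026 and 793 CPM, a log2 ratio of -0.37 (-0.58 to -0.17), and Junb at 1060 and 829 CPM, a log2 ratio of -0.35 (-0.56 to -0.15). Jun (1634 and 1424 CPM) and Jund (723 and 577 CPM) were likewise lower there, with log2 ratios of -0.20 and -0.32. None of these 4 was lower by 1.5-fold, and the difference between the clusters was not tested.

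In LEC-like cells, the lining of lymphatic vessels, 1 of 4 measured members was called higher and none lower, where 6.66% of genes measured were called higher and 6.03% lower. That member was Fos, at 66.5 CPM (45.5 to 93.9) and 172 CPM (137 to 214), a log2 ratio of 1.37 (0.77 to 2.01) from 32 and 83 UMIs. Jun was at 135 and 189 CPM, below its level in every other vessel class by intervals that did not overlap. With no upper limit of genes per cell the Fos log2 ratio was 0.44 (0.0067 to 0.88) and the call was lost, as it was in 2 others (1.30 and 1.42) whose intervals took in 0. Junb was at 189 and 247 CPM, a log2 ratio of 0.39 (-0.02 to 0.80), and at 2.49 with classes set by marker UMIs per cell. That setting put other cells in the class, 69 control and 240 B16-F10, and 22.7% of genes measured were called higher. In the main class Fosl1 had no UMI in either library, for which a floor of 3 UMIs allows up to 6.24 CPM (control) and 6.23 CPM (B16-F10).

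**Figure D4:**
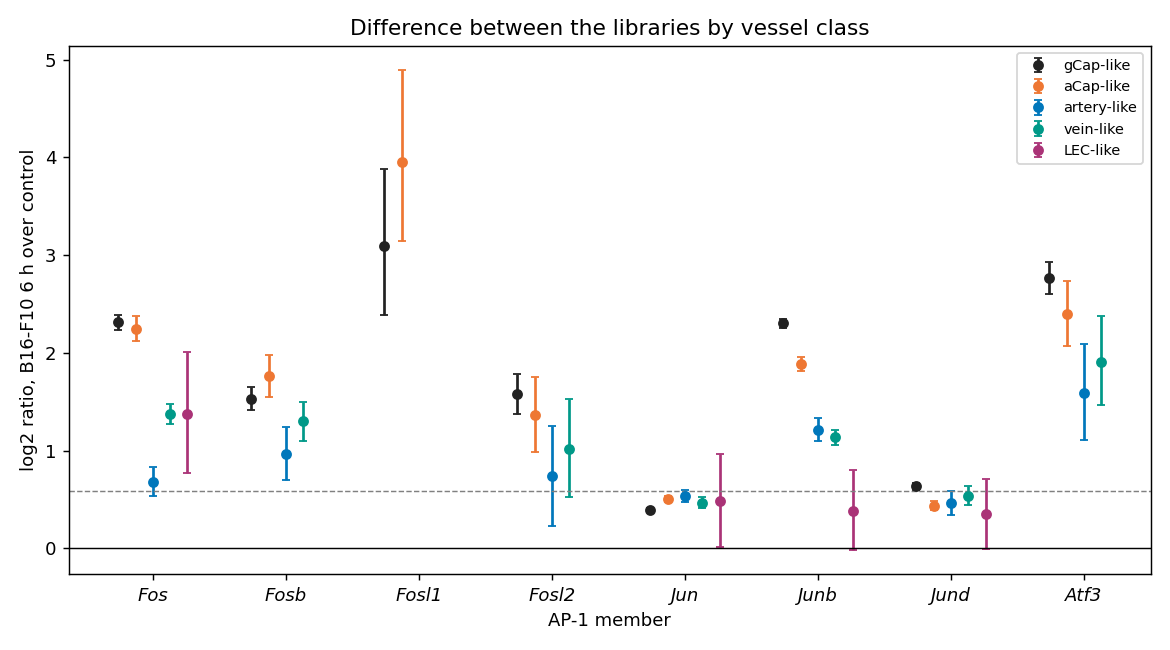
Log2 ratio of the B16-F10 over the control library for each member and vessel class with at least 50 UMIs, with exact 95% intervals for counting error; the dashed line is the 1.5-fold limit and the solid line is 0. Fos, Junb and Atf3 lie at 2.31, 2.30 and 2.77 in gCap-like ECs, and Jun lies under the dashed line in all 5 classes.

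The order of the classes by control level of Fos was vein (355 CPM), artery (161), LEC (66.5), gCap (59.4) and aCap (48.2), in which the intervals of LEC overlapped those of gCap and aCap. The artery place rested on the cluster led by Sfrp1, whose 68 cells held 542 of the 632 control UMIs, at 1026 CPM. The 426 control cells led by Adam23 were at 26.4 CPM, below the level of every class. By Fos level in the B16-F10 library the order was vein (920 CPM), gCap (294), artery (258), aCap (228) and LEC (172), in which the intervals of artery and aCap stood just apart (241 to 275 and 220 to 238). The artery clusters led by Sfrp1 and Adam23 were at 793 and 191 CPM there. For Atf3 the control order was vein (17.1), artery (12.5), gCap (11.9), aCap (7.32) and LEC (4.16), in which only the intervals of gCap and aCap stood apart among neighbours. In the B16-F10 library gCap (81.0 CPM) led, ahead of vein (64.2), and the intervals of aCap (38.6) and artery (37.5) overlapped. That gCap lead rested on the cluster led by Lalba, which held 1727 of the 2669 Atf3 UMIs of the class, at 184 CPM. Every other gCap cluster of that library was at 44.2 CPM of Atf3 or less, below vein.

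Across the 12 vessel clusters with at least 20 cells in each library, the Fos log2 ratio was above 0 beyond its interval in 11 and below in 1, the artery cluster led by Sfrp1. Junb was above 0 in 10 and below in 1, Fosb above in 10, Atf3 above in 9, Jun above in 9 and below in 1, Jund above in 9 and below in 1, Fosl2 above in 7 and Fosl1 above in 2. Within gCap-like ECs Jun was not uniform. In the cluster led by Sh3gl2 and Chrm2 it was at 938 and 1893 CPM, a log2 ratio of 1.01 (0.97 to 1.05), and in the cluster led by Lalba it was at 1666 and 1630 CPM, a log2 ratio of -0.03 (-0.13 to 0.07).

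The Lalba-led gCap cluster, most of whose cells came from the B16-F10 library, had the highest Junb level of the gCap clusters in both libraries. Atf3 was at 147 CPM in its 65 control cells and 184 CPM in its 992 B16-F10 cells, a log2 ratio of 0.33 whose interval just took in 0, against 44.2 CPM in the B16-F10 cells of the Sh3gl2-led cluster. Junb was at 529 and 1114 CPM, a log2 ratio of 1.08 (0.90 to 1.25), where the other gCap clusters lay at 112 to 276 CPM in control and 427 to 924 CPM in the B16-F10 library. Fosl2 was at 32.0 and 66.2 CPM. Fos was at 280 CPM in its B16-F10 cells, below the 321 CPM of the Sh3gl2-led cluster. The 8 members were not among the genes used to cluster the cells.

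**Figure D5:**
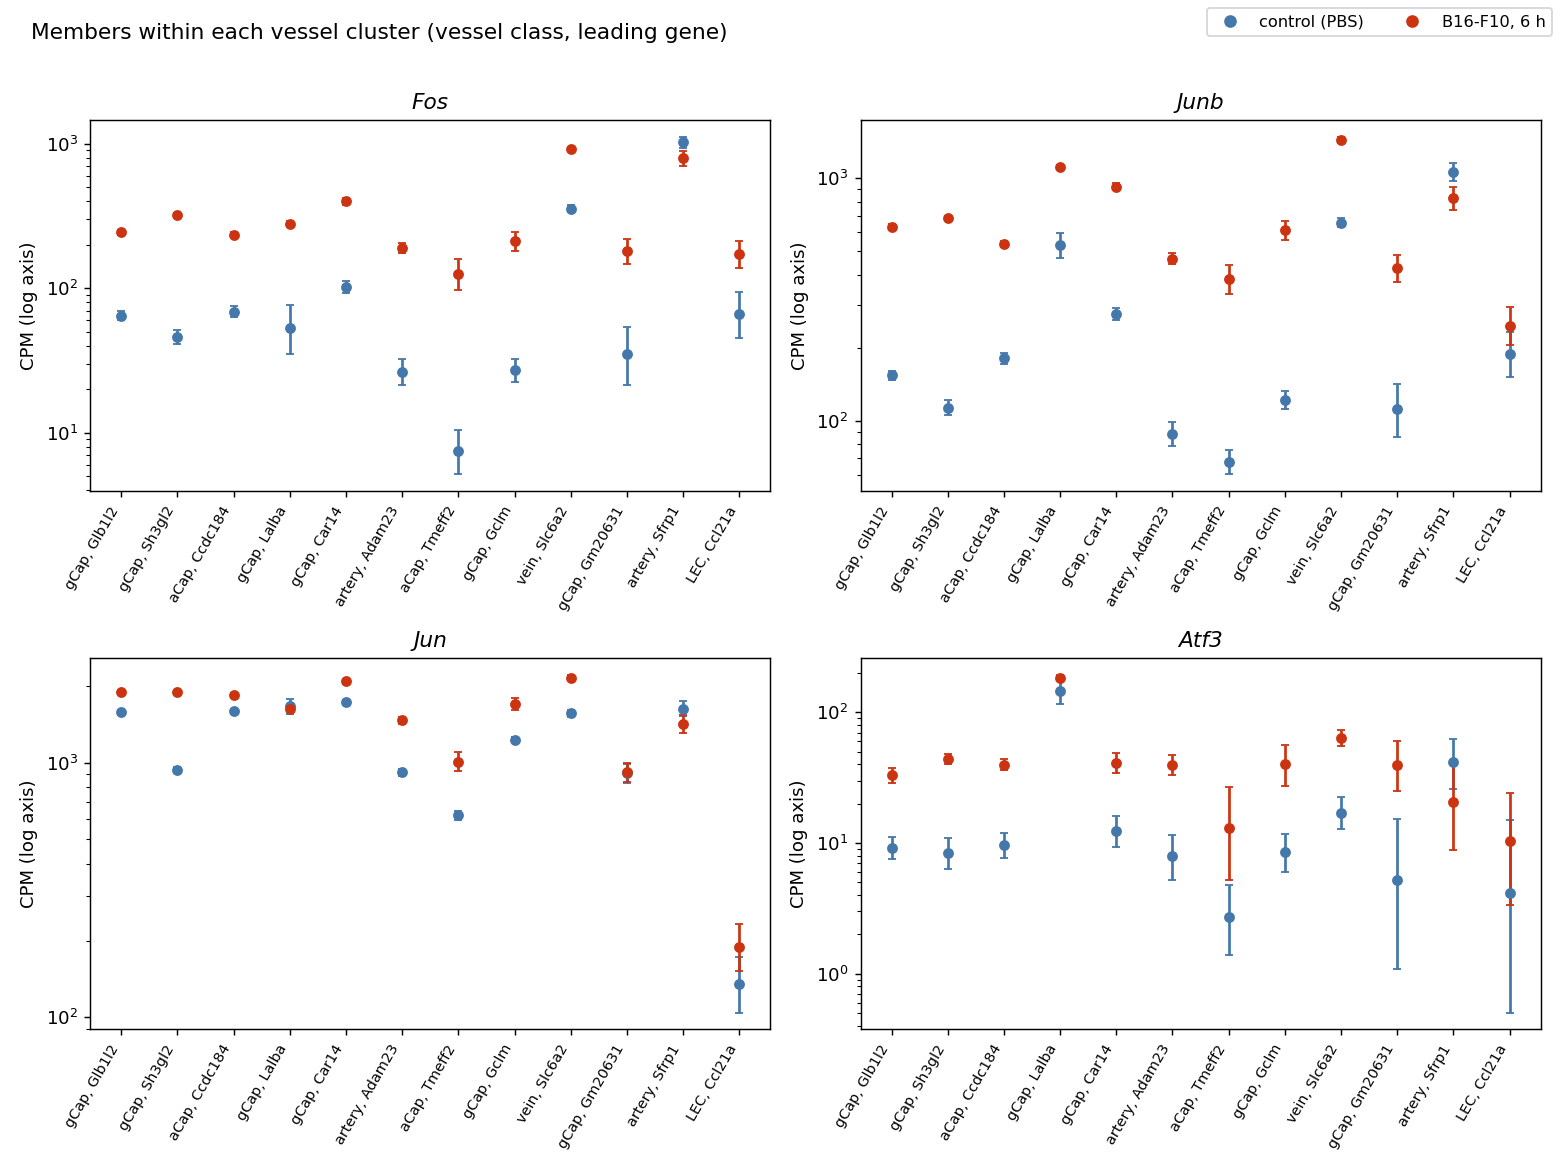
Level in CPM (log axes) of Fos, Junb, Jun and Atf3 in the 12 vessel clusters, named by class and leading gene, in the control (blue) and B16-F10 (red) libraries, with exact 95% Poisson intervals. For Fos the red point lies above the blue one in 11 clusters. In the artery cluster led by Sfrp1 Fos was at 1026 CPM in control and 793 CPM in the B16-F10 library, and in the Lalba-led gCap cluster Atf3 was at 147 and 184 CPM.

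In the B16-F10 library most Fosl1 lay outside the named vessel classes. Of its 1413 UMIs in all B16-F10 cells, 66.4% (63.9 to 68.9) came from 239 unnamed ECs led by Csf2 and Sox9, a cluster of 3.08% of the cells that had 6 control cells and in which Fosl1 was itself a leading gene. There Fosl1 was at 355 CPM (332 to 378), Atf3 at 350 CPM, Fosl2 at 132 CPM, Junb at 1139 CPM and Jun at 988 CPM, and Fos at 172 CPM was below its level in B16-F10 gCap-like ECs. A platelet-marked mixed cluster led by Ppbp held 68 more Fosl1 UMIs in the B16-F10 library and none among its 70 control cells.

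Cells with more melanoma-marker than macrophage-marker UMIs, 78 in the B16-F10 library and none in the control, were split from their cluster after the data had been seen. In them Jund was at 145 CPM, Junb at 47.1 CPM, Jun at 38.6 CPM and Fos at 16.9 CPM, all below gCap-like ECs of the same library, and Fosl1 had no UMI. Atf3 was at 169 CPM (142 to 200), above the gCap-like level of 81.0 CPM, with its 140 UMIs in 15.4% of the cells. The 36 macrophage-like cells of that library held Fos at 3040 CPM and Atf3 at 421 CPM, above every EC class.

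Markers of other cells also differed between the gCap-like ECs of the 2 libraries. The 8 melanoma markers summed to 1.34 CPM in control, where 5 of 8 (Tyrp1, Tyr, Dct, Slc45a2 and Mlana) were at 0, and to 37.6 CPM in the B16-F10 library. The 8 macrophage markers summed to 17.0 and 29.9 CPM, with C1qa at 0 in control, the 8 neutrophil markers to 2.54 and 8.47 CPM, with Mmp8 and Ly6g at 0 in control, the 8 mural markers to 24.6 and 40.0 CPM and the 6 red cell markers to 1154 and 1498 CPM. In gCap-like cells with no UMI of platelet, mural, macrophage, neutrophil, lymphocyte or melanoma markers the log2 ratio was 2.42 for Fos and 2.40 for Junb. The median mitochondrial share was 1.99% in control and 2.34% in B16-F10 gCap-like ECs, and its part in these differences was not tested.

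Across single gCap-like cells thinned to 2000 UMIs, Fos, Fosb, Junb, Jun and Jund varied together within each library. These correlations are over cells of 1 library and are descriptions only. Fos correlated with Fosb at r = 0.26 over 3772 control cells and 0.36 over 3729 B16-F10 cells, with Junb at 0.27 and 0.31, and with Jun at 0.22 and 0.26. Fosl1 and Fosl2 were too sparse for their values near 0 to be read. Of 5654 genes compared, those most like Fos by mean r were Junb, Jund, Jun, Btg2 and Socs3, and those most like Junb were Ier3, Fos, Socs3, Ier2 and Zfp36. Most like Atf3, among 5655 genes, were Akap12 (r = 0.044 and 0.24), Plaur, Actb, Actg1 and Junb.

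Over the 10 sums of vessel class by library, the gene most like Fos was Junb (r = 0.95), followed by mt-Co3 (0.92) and mt-Nd4 (0.91), among 3953 genes with at least 20 UMIs in every sum. Most like Jun were Tmem176b (0.98), Id1 and Ctla2a, and most like Jund were Ube2v1 (0.96), Snx3 and Gnai3. Junb itself was nearest to Fos, Rpl36al and Stat3. The sums share their libraries and differ in depth, so these are descriptions.

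The list of other immediate early genes was counted next. For this and the following lists in gCap-like ECs, 7.98% of all genes measured were called higher and 9.56% lower. In gCap-like ECs 16 of its 23 measured genes were called higher and none lower, with a median log2 ratio of 1.01 beside -0.04 for all genes. Ier3, a survival factor, was at 203 and 910 CPM, a log2 ratio of 2.17 (2.13 to 2.21). Klf2 (757 and 963 CPM) and Klf4 (386 and 520 CPM), the shear-responsive factors of quiescent endothelium, had log2 ratios of 0.35 and 0.43, short of the limit.

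Of the 16 measured genes listed as AP-1 targets, 10 were called higher in gCap-like ECs and 1 lower, with a median log2 ratio of 0.73. Icam1, a leukocyte adhesion molecule, was at 126 and 205 CPM (log2 ratio 0.71), while Vim, an intermediate filament gene, was at 746 and 680 CPM. Edn1, the vasoconstrictor peptide gene, was the 1 target called lower, at 348 and 152 CPM, a log2 ratio of -1.20 (-1.25 to -1.15).

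Among the other bZIP factors, relatives that can pair with AP-1 proteins, 7 of 23 measured genes were called higher, with a median log2 ratio of 0.08. Cebpd, a factor of the acute-phase response, was at 317 and 1370 CPM, a log2 ratio of 2.11 (2.08 to 2.15). Xbp1, of the unfolded protein response, was at 207 and 419 CPM, and Atf7 at 218 and 167 CPM.

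Counts among kinases and factors upstream of the family lay near the share over all genes. Of 25 measured genes 2 were called higher and 3 lower, where 7.98% and 9.56% of all genes measured were. Their median log2 ratio was -0.10. The genes with most UMIs were Mef2a (log2 ratio 0.22), Elk3 (0.05) and Mapk3 (0.25). Those called higher were Srf, serum response factor, at 5.95 and 10.3 CPM, and Map3k8 at 45.4 and 73.7 CPM, and those called lower were Map3k5, Map2k6 and Mapk14. These 5 were named after their values had been seen.

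Heat shock genes respond to stress during tissue dissociation. Counts among them lay near the shares over all genes measured (7.98% higher and 9.56% lower). Of 16 measured in gCap-like ECs, 2 (Hspe1 and Hsp90aa1) were called higher and 2 (Hspa1a and Hspa1b) lower, and the 3 with most UMIs, Hsp90ab1, Hspa8 and Dnaja1, had log2 ratios of 0.27, 0.13 and -0.21. Hspa1b was at 10.3 and 3.46 CPM. Across single cells Jun correlated with the list at r = 0.28 in control and 0.045 in the B16-F10 library. All cells were digested with collagenase before sorting, and the part of digestion in the levels of AP-1 genes was not tested.

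The list for the study's reactive capillary cells held the markers that the study measured by quantitative PCR. It also held Socs3, which the study's main text does not name as a marker. All 8 were called higher in gCap-like ECs, with a median log2 ratio of 2.47. These markers were chosen on data that include these libraries, so their count is not independent. Socs3, an inhibitor of cytokine signalling, was at 67.7 and 508 CPM, Adamts9 at 138 and 494 CPM and Scarb1 at 124 and 353 CPM. Over single cells Junb correlated with this list at r = 0.12 in control and 0.31 in the B16-F10 library, and Fos at 0.071 and 0.093. Socs3, part of the list, was itself among the 5 genes most like Junb and the 5 most like Fos.

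Outside gCap-like ECs the lists kept different counts. Over all genes measured, 6.12% were called higher in aCap-like, 7.55% in artery-like, 4.63% in vein-like and 6.66% in LEC-like cells. In the same order 7.46%, 7.19%, 4.78% and 6.03% were called lower. Immediate early genes were called higher in 9 of 21 measured genes in aCap-like, 11 of 20 in artery-like, 7 of 19 in vein-like and 3 of 15 in LEC-like cells, and AP-1 targets in 7 of 15, 6 of 13, 5 of 14 and 2 of 7. From these lists Klf10 was called lower in aCap-like, Hbegf in vein-like and Vim in LEC-like cells. In LEC-like cells the median log2 ratio of the immediate early genes was -0.08. Heat shock genes were called lower in 3 of 16 in aCap-like and 4 of 16 in vein-like ECs, with 0 higher in either. In artery-like ECs 1 of 16 (Hspe1) and in LEC-like cells 1 of 10 (Hspa5) was called higher and 0 lower.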

How the data were processed

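The labels and the study's methods describe Chromium 3′ libraries of sorted lung cells. The authors' deposited matrices hold raw UMI counts per gene and barcode, and per the labels they were made with Cell Ranger 7.2.0 on mm10 (Seurat 4.4.0 is also listed). The study's methods name an earlier Cell Ranger version, and whether introns were counted is not given in the sources used here. The deposited counts cover every barcode with a UMI, so cells were chosen here: 1000 to 5000 genes and under 20% mitochondrial UMIs. In each library the highest Scrublet scores were removed as doublets (564 control and 554 B16-F10 barcodes), at a rate of 0.8% per 1000 cells. Cells were scaled to 10000 UMIs, log-transformed and standardised per library (scanpy 1.11.5). The members and immediate early, heat shock, reactive capillary and interferon-rich EC genes were left out, and 2923 variable genes were used. These gave 30 components and 24 Leiden clusters (resolution 0.8, leidenalg 0.10.2). Clusters were named "-like" from marker lists: at least 3 markers and 50% of a list at 1.5-fold over the other clusters. A cluster with more markers of another class than of its own among its 10 leading genes stayed unnamed.

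Counts were summed per class and library. Levels carry exact Poisson intervals, ratios an exact conditional binomial interval and shares the Clopper-Pearson interval (scipy 1.17.1), none of which takes in variation between mice. No test was run, since each condition had a single library. The members and lists were chosen with earlier results of these data known. The genes named were the 8 members, the 3 of each list with most UMIs in gCap-like ECs, the 3 most like a member across classes and the 5 most like Fos, Junb and Atf3 across cells. Other settings are given with their values at the end. The count of other bZIP factors called lower is not reported here.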

Additional observations from a re-analysis of the deposited data

Results flagged for a closer look

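In the artery cluster led by Sfrp1 and Dkk2 (68 control and 43 B16-F10 cells) 4 members lay below 0 on the log2 scale beyond their counting interval, where the other artery cluster lay above it: Fos at -0.37, Jun at -0.20, Junb at -0.35 and Jund at -0.32. The difference between the clusters was not tested, and each value comes from 1 library per condition.

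Barcodes outside the limits on genes per cell entered no main comparison, though some entered alternatives and those with 1 to 100 UMIs gave the free RNA estimate. In each range of these barcodes the 8 members together were higher in the B16-F10 library. The level was 1372 CPM in control and 2568 CPM in the B16-F10 library for barcodes with 1 to 100 UMIs. It was 985 and 2011 CPM for those with over 100 UMIs and under 300 genes, and 810 and 1162 CPM for those with at least 300 but under 1000 genes. Barcodes with over 5000 genes, 348 in control and 645 in the B16-F10 library, held 2296 and 3414 CPM.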

How the results depend on the processing

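No paired analysis was possible because no condition had more than 1 library. In gCap-like ECs all 8 members kept a log2 ratio above 0 in each alternative run. Each member's log2 ratio is given where it left its counting interval. It was 2.23 for Junb with at least 500 genes per cell, 1.25 for Fosl2 and 2.26 for Junb with no upper limit of genes, 1.30 for Fosl2 under 10% mitochondrial UMIs, 1.38 for Fosl2 and 0.68 for Jund with doublet calls not removed, 1.27 for Fosl2 at resolution 1.6, and 2.96 for Atf3 with members and response genes kept in clustering. With classes from marker UMIs per cell it was 1.34 for Fosl1, 0.92 for Fosl2, 0.45 for Jun, 2.22 for Junb, 0.68 for Jund and 2.48 for Atf3. In the settings named so far the class itself changed, to 4445 to 5226 control cells in place of 3830. Thinning to 2000 UMIs gave 2.22 for Fos, 1.66 for Fosb, 0.43 for Jun and 2.37 for Junb, and scaling by the median ratio gave 0.43 for Jun and 0.68 for Jund. Cells with no UMI of other types' markers gave 2.42 for Fos, 2.40 for Junb and 0.68 for Jund. Summing all ECs gave 1.88 for Fos, 4.77 for Fosl1, 1.99 for Junb and 0.54 for Jund. Subtracting free RNA and leaving out the cluster of few UMIs moved none of the 8.

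Alternatives chosen after the data were seen weighed the clusters. Weighting them by control cells gave 1.03 for Fosl1, 0.65 for Fosl2, 0.44 for Jun, 2.08 for Junb, 0.59 for Jund and 1.82 for Atf3. Leaving out clusters held mostly by 1 library gave 2.21 for Fos, 0.96 for Fosl1, 0.48 for Fosl2, 0.43 for Jun, 2.08 for Junb, 0.54 for Jund and 2.08 for Atf3, with 4 members called higher in place of 7 (6.03% of genes measured). A 2-fold limit left 6 members called (3.43% of genes). Leaving out the barcodes found in both libraries moved none of the 8.

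In artery-like ECs the Jund log2 ratio was below 0 in 5 alternatives, at -0.11 with no upper limit of genes, -0.10 under 10% mitochondrial UMIs, -0.26 with doublet calls not removed, -0.21 at resolution 1.6 and -0.052 with members kept in clustering, and the artery class then held 190 to 261 control cells in place of 494. Over the same 5, Fos lay at 0.11 to 0.34 and its call was lost, and with doublet calls not removed and at resolution 1.6 Junb (0.29 and 0.34) and Fosb (0.46 and 0.53) were lost too, which left 2 of 7 members called (7.65% and 8.02% of genes). No call was lost in aCap-like ECs. Without the Sfrp1-led cluster the artery log2 ratio was 2.85 for Fos and 2.41 for Junb. Depth limits Fosl1 most, with 18 control UMIs in gCap-like ECs, and LEC-like cells, with 4 members measured.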
